A study of Mus musculus with 4 samples.

Results

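Semaphorins are guidance proteins, secreted or held at the cell surface, that steer migrating cells and growing axons. Plexins are their main receptors, and neuropilins are co-receptors that the secreted class 3 semaphorins need in order to act on A-type plexins. Oligodendrocyte progenitor cells (OPCs), the dividing precursors of myelin-forming cells, respond to class 3 semaphorins when they migrate, and oligodendrocytes (OLs) themselves display semaphorins that hold back axon growth. The genes described here are the protein-coding genes of the mouse annotation named Sema, Plxn or Nrp followed by their class and number. They are 31 of 21887 genes, made up of 20 semaphorins, 9 plexins and 2 neuropilins.

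Open chromatin of OLs and of OPCs was mapped with Omni-ATAC-seq, an assay that uses the Tn5 transposase to cut accessible DNA and tag it for sequencing. The OLs were sorted for the surface antigen O1, and their cultures are labelled as immature oligodendrocytes. The OPC medium held the mitogens PDGFA and bFGF, at 20 ng/mL of each. The entries of all 4 libraries, OLs included, list these values, with poly-ornithine at 100 µg/mL and laminin at 10 µg/mL. How the OL medium differed is not described here. OPCs of both lines had been derived from epiblast stem cells without SHH and sorted for CD140a and NG2 after 4 passages before expansion. Each cell type was made from EpiSC5 and from 129O1, stem cell lines of the strains 129SvEv and 129S1/SvImJ, with 1 library per line and n = 2 in each group. The cells therefore stand for lineage cells made in culture from 2 lines and not for cells taken from brain. The labels do not say that the libraries came from separate differentiations. The spread within a group lies between 2 lines with 1 library each, so line differences and technical ones cannot be told apart in it. The p-values also rest on a variance that limma draws toward a trend over all genes, and not on the libraries of each gene alone. The question is which of these genes differ in accessibility between the differentiated cell and its progenitor.

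The deposited data are 1 peak list per library on mm10, without read counts. The OL lists held 127196 and 152595 peaks over 35.02 and 41.2 Mb in 129O1 and EpiSC5, and the OPC lists held 129534 and 125002 peaks over 38.63 and 44.11 Mb. Accessibility of a gene is given here as the base pairs covered by peaks in the gene and 2 kb on each side, in kb, scaled so that all lists have the same total. The marker genes followed the labels in part. Of 8 oligodendrocyte genes tested, 6 rose in OLs (summed coverage 19.6 and 22.5 kb in OLs, against 8.99 and 11.98 kb in OPCs), while none of 5 OPC genes passed the test by covered length (20.9 and 22.0 kb in OLs, against 18.3 and 18.02 kb in OPCs). By number of peaks none of the 8 oligodendrocyte genes passed, although 7 of the differences were positive. The OPC gene Lhfpl3 was called higher in OLs by number of peaks (log2 difference 0.61). By covered length, vascular and mesenchymal genes fell in 4 of 5 tested, with sums of 3.73 and 3.43 kb in OLs and 8.99 and 9.25 kb in OPCs. Cldn5 of that list was at 0 in all 4 libraries. Astrocyte genes fell in 2 of 6 (8.85 and 8.03 kb in OLs, against 11.6 and 11.9 kb in OPCs) and neuron genes in 3 of 6 (25.5 and 24.9 kb in OLs, against 25.4 and 28.8 kb in OPCs). None of the 2 microglial genes tested passed (2.70 and 3.10 kb in OLs, against 2.75 and 2.62 kb in OPCs over the list), and of the pluripotency genes (1.77 and 1.24 kb in OLs, against 1.55 and 1.81 kb in OPCs) Pou5f1 was at 0 in all 4 libraries. Which part of the differences below came with these other cell types was not tested, and in bulk libraries a change in the share of cells of a type cannot be told apart from a change within each cell.

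Among the ligands, Sema5a, Sema3d, Sema4d and Sema4a covered more sequence in OLs, and Sema3a and Sema4b covered less. No plexin or neuropilin passed the test. Of the 31 genes, 30 had a mean coverage of at least 500 bp and were tested, Sema3b being the exception, and 6 of the 30 (20.0%) had an adjusted p below 0.05 by limma. Over all 14543 genes tested the share was 19.6%, with 11.0% higher and 8.63% lower in OLs, so the number of calls in the family is close to that of genes in general. The libraries of the 2 cell types did not overlap in 7 family genes higher and 8 lower in OLs, against 27.4% higher, 28.1% lower and 55.5% in either direction over all genes tested. The results that follow are therefore about single genes. The plot of coverage by library shows all 31.

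**Figure D1:**
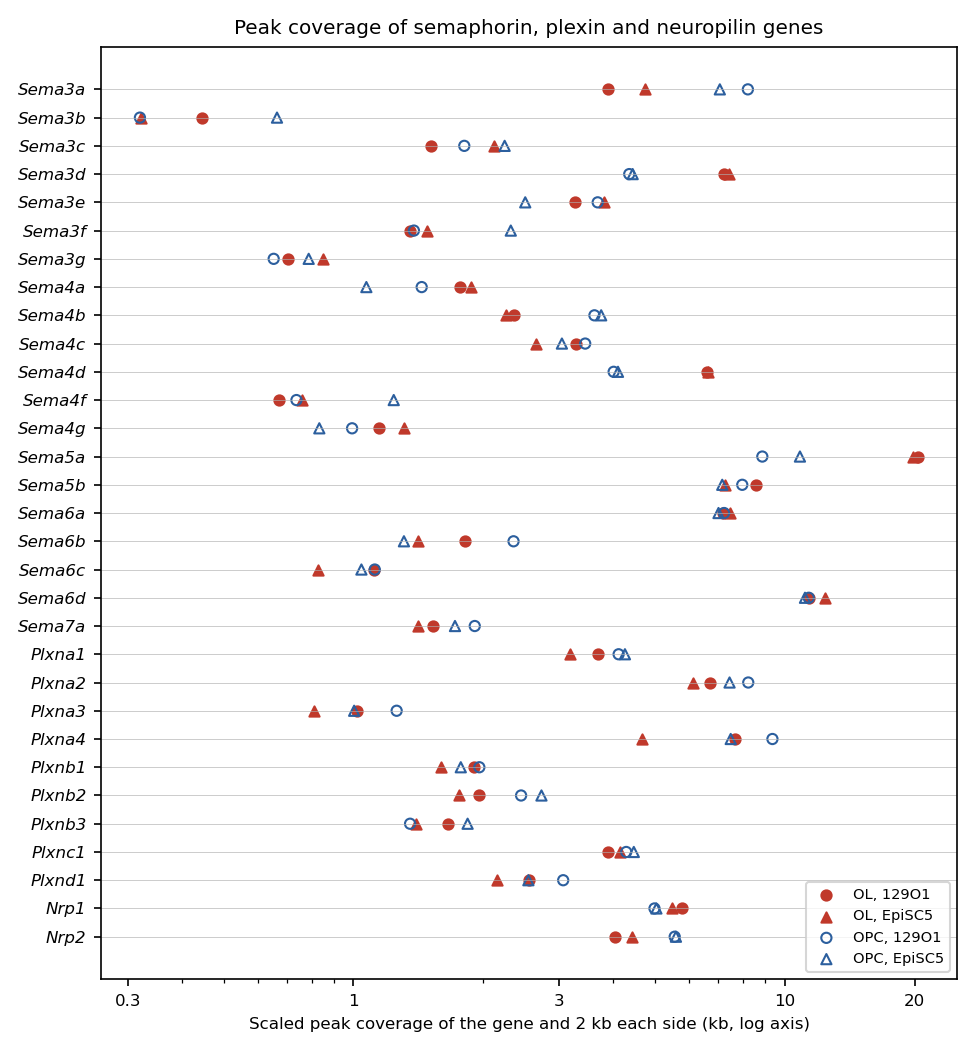
Peak coverage in kb (log axis), scaled to equal list totals, of each of the 31 genes and 2 kb on each side, with 1 point per library (OL filled red, OPC open blue, circles for 129O1, triangles for EpiSC5). Sema5a has the widest gap, with 20.4 and 19.8 kb in OLs and 8.86 and 10.8 kb in OPCs. Of the genes lower in OLs, Sema3a has the largest difference between group means.

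The promoters of 5 semaphorin genes called by covered length that had a peak at a start of the RefSeq promoter table (GRCm38.p6, the mm10 assembly) are shown because the accessible region at the start behaved differently from gene to gene. Each is the 250 bases before the annotated start, 5′ to 3′ on the gene's strand. Capitals mark matches, on either strand, to the motif letters searched. The GC box bound by Sp-type factors was searched as GGGCGG and the TATA box as TATAAA. The E-box was searched as CAGCTG and the AP-1 site as TGANTCA. The NFI site was searched by its short arm TTGGCA. The core recognised by SOX factors was searched as AACAAT, and in a separate search as ACAAAG.
Sema5a, chr15:32244563-32244812, plus strand: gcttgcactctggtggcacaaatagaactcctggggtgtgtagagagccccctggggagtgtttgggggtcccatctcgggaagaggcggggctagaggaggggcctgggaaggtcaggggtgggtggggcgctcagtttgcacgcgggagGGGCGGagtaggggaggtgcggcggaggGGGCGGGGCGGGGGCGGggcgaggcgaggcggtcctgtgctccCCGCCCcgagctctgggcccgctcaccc
Sema3d, chr5:12382916-12383165, plus strand: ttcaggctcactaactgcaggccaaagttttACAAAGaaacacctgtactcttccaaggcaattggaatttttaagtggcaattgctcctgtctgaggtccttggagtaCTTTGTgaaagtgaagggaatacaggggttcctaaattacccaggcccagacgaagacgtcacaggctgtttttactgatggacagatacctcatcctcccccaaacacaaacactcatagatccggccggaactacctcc
Sema4d, internal start, chr13:51748811-51749060, minus strand: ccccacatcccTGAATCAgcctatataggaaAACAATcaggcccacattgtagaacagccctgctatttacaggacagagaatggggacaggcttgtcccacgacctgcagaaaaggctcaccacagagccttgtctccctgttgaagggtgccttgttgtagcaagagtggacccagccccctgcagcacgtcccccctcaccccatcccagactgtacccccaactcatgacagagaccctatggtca
Sema4b, chr7:80198338-80198587, plus strand: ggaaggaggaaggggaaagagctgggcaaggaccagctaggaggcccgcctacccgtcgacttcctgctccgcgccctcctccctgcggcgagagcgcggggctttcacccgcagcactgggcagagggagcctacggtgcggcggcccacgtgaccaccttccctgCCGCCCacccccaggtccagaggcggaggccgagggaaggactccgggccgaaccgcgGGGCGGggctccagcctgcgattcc
Sema4a, chr3:88461183-88461432, minus strand: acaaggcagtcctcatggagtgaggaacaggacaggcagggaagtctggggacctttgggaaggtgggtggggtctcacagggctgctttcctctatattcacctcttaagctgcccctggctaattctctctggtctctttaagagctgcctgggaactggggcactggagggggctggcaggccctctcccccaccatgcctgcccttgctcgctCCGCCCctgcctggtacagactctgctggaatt

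The Sema5a promoter held 5 GC boxes, counting matches that overlap each other in its run of G and C, at 72.0% G and C. The printed Sema4b promoter, that of a start inside the gene, held 2 GC boxes at 72.4%, and the Sema4a promoter held 1 at 59.6%. The Sema3d promoter had no GC box and 2 matches to ACAAAG, 1 on each strand, at 46.8%. The internal Sema4d start also had no GC box, with 1 AP-1 match, TGAATCA, beside 1 AACAAT match, at 55.2%. Over the 37 listed starts of 26 family genes, 27 held a GC box, against 42.6% of 21263 promoters of the same length, and none held TATAAA, against 11.6%. Their median content of G and C was 64.0%, against 55.6% over all promoters, and the part of base composition in the GC box share was not tested. AP-1 matches were in 3 of the 37, against 6.13% of all, ACAAAG in 5, against 14.9%, and AACAAT in 2, against 8.22%. CAGCTG matched in 6 of the 37, against 12.1% of all, and TTGGCA in 1, against 11.5%. These are matches of letters and not bound sites.

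Sema5a encodes a transmembrane semaphorin with thrombospondin-type repeats that is known in rodents as an inhibitor of retinal axon growth made by cells of the oligodendrocyte lineage. The gene (chr15:32244813-32696341) had 20.4 and 19.8 kb of covered sequence in the OL libraries of 129O1 and EpiSC5, against 8.86 and 10.8 kb in the OPC libraries. Both OL libraries lay far above both OPC libraries. Coverage averaged 20.1 ± 0.406 kb in OLs and 9.85 ± 1.39 kb in OPCs (SD, n = 2 each), a log2 difference of 1.02 (SE 0.12) or 2.03-fold on the log2(bp + 200) scale, with an adjusted p of 1.26e-05. It was called under 12 of 13 alternative settings (adjusted p between 2.95e-14 and 0.0770), all except that without scaling. The number of peaks moved the same way, with 72 and 83 peaks in OLs and 38 and 33 in OPCs (adjusted p = 0.0153).

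The gain was spread along the gene rather than placed at its start. When overlapping peaks of all libraries were merged into regions, Sema5a held 38 regions with peaks in each OL list but none in OPCs (OL-only), against 5 with the converse (OPC-only) and 16 with a peak in all 4 lists. The OL-only regions lay between 24.5 and 451 kb downstream of the start. In consecutive stretches of 20% of the gene they numbered 8, 12, 6, 7 and 5. At the start itself the peak was narrower in OLs, 234 and 713 bp, against 1045 and 1939 bp in OPCs. Accessible sequence at the Sema5a promoter was thus present in all 4 libraries, as in 56.0% of genes with a listed start. Its unscaled width differed in the opposite direction to the coverage of the whole gene. Unscaled, that coverage was 17941 and 20509 bp in OLs, against 8616 and 12026 bp in OPCs. Narrower promoter peaks in both OL libraries were the common case, at 68.5% of 9788 genes with such a peak in all 4 lists.

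Sema4d, whose product is a membrane-bound ligand of Plxnb1 displayed by oligodendrocytes, covered 6.61 and 6.63 kb in OLs, against 4.01 and 4.10 kb in OPCs. Within each cell type the lines differed little, and the groups did not overlap. The log2 difference was 0.68 (SE 0.14, adjusted p = 0.00157), or 1.60-fold. Peaks numbered 23 and 26 in OLs and 10 and 13 in OPCs (adjusted p = 0.0358). Sema4d (chr13:51685529-51793678, minus strand) held 9 OL-only regions, 8 regions in all 4 lists and no OPC-only region. The call by covered length held under 11 of 13 alternative settings (adjusted p between 0.000495 and 0.103), the exceptions being no scaling and the stronger 50% of peaks.

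Sema4d was also the 1 family gene with promoter peaks in OLs alone. At the internal start whose promoter is printed above, the region chr13:51748772-51749176, which lies 44.5 to 44.9 kb into the gene, had peaks of 357 and 405 bp in OLs and none in OPCs. In the authors' lists these peaks had −log10 q values of 16.2 and 28.0. Of 17492 genes with a listed start, 0.314% had promoter peaks in both OL lists and in no OPC list. The 5′ end of the gene differed from this start. Its region, chr13:51792863-51793855, had peaks of 521 and 584 bp in OLs and of 896 and 841 bp in OPCs. A site without a peak is one where the caller found nothing past its threshold, and it need not be closed.

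Sema3d (chr5:12383161-12588953), a secreted class 3 semaphorin, covered 7.21 and 7.41 kb in OLs, against 4.36 and 4.44 kb in OPCs, with no overlap. The log2 difference was 0.71 (SE 0.13, adjusted p = 0.00102), and the call held under 11 of 13 alternatives (adjusted p between 0.000211 and 0.102), failing without scaling and with 200 bp windows around peak summits. Its peaks numbered 25 and 29 in OLs and 19 and 16 in OPCs and did not pass the test (adjusted p = 0.103). It held 11 OL-only and 5 OPC-only regions, and its promoter peak was 790 and 784 bp wide in OLs and 909 and 951 bp in OPCs. Without scaling, Sema3d covered 6351 and 7682 bp in OLs, against 4235 and 4925 bp in OPCs, and promoter widths are also unscaled. As in Sema5a, the promoter peak was thus the narrower in OLs while the gene as a whole was covered more.

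Sema4a (chr3:88435959-88461182), a membrane-bound ligand best known from immune cells, was close to the threshold. It covered 1.77 and 1.87 kb in OLs, against 1.44 and 1.07 kb in OPCs, a log2 difference of 0.49 (SE 0.17, adjusted p = 0.0492). The call held under 2 of 13 alternative settings (adjusted p between 0.0262 and 0.564) and did not hold in a fit blocked by line (adjusted p = 0.0565). It was also lost without the 129O1 OL library (0.0859), the EpiSC5 OL library (0.158) or the EpiSC5 OPC library (0.452). At the printed start, peaks covered 199 and 424 bp in OLs, against 0 and 358 bp in OPCs.

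Sema4g (chr19:44988743-45003397), a ligand of Plxnb2 in mouse cerebellum, passed by number of peaks alone, with 4 and 5 in OLs and 1 in each OPC library (log2 difference 1.37, SE 0.25, adjusted p = 0.0266). Its covered length was 1.15 and 1.31 kb in OLs, against 0.993 and 0.833 kb in OPCs, and did not pass (adjusted p = 0.176). The peak at its start was narrower in OLs, 379 and 359 bp against 965 and 925 bp in OPCs, and 2 OL-only regions lay about 1.09 and 2.42 kb downstream of the start. By number of peaks, 3 of 29 family genes tested were called, Sema4d, Sema5a and Sema4g, all higher in OLs. Over 12465 genes 6.19% were called, 4.15% higher and 2.04% lower. These calls by peak number are the less firm ones, since leaving out any single library removed those of Sema4d and Sema5a (adjusted p between 0.0735 and 0.231), and that of Sema4g held without the EpiSC5 OL library alone. With the line as a block, 7 family genes were called by peak number, adding Sema5b and Sema3d as higher in OLs (adjusted p = 0.0117 and 0.0287) and Sema3a and Sema4b as lower (adjusted p = 0.0152 and 0.0156), while 2245 genes were called in all, against 771 without it.

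Sema3a encodes the secreted semaphorin that repels growth cones and OPCs through Nrp1 and A-type plexins. It covered 3.89 and 4.73 kb in OLs, against 8.21 and 7.07 kb in OPCs, with a wide gap between the groups. The log2 difference was -0.80 (SE 0.14, adjusted p = 0.000718), with coverage 1.74-fold higher in OPCs. It was called under 11 of 13 alternatives (adjusted p between 2.99e-06 and 0.0883), but not without scaling or with 200 bp windows. Peaks numbered 18 and 23 in OLs and 30 and 24 in OPCs (adjusted p = 0.0919). Sema3a (chr5:13124822-13603485) held 4 OL-only regions, 9 OPC-only regions and 9 regions in all 4 lists. Of the 4 OL-only regions, 3 lay within the first 20% of the gene, and OPC-only regions were found in each of the 5 stretches of 20%. Its listed start, 13396784, lies inside the gene and had no peak in any library, as did 36.8% of genes with a listed start.

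Part of the Sema3a difference lay in regions with peaks in both cell types. The region chr5:13547306-13548424 was covered over 263 and 417 bp in OLs and over 931 and 1098 bp in OPCs. The OPC-only region with the most covered sequence, chr5:13526944-13527472, had peaks of 529 and 480 bp in the OPC libraries.

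**Figure D2:**
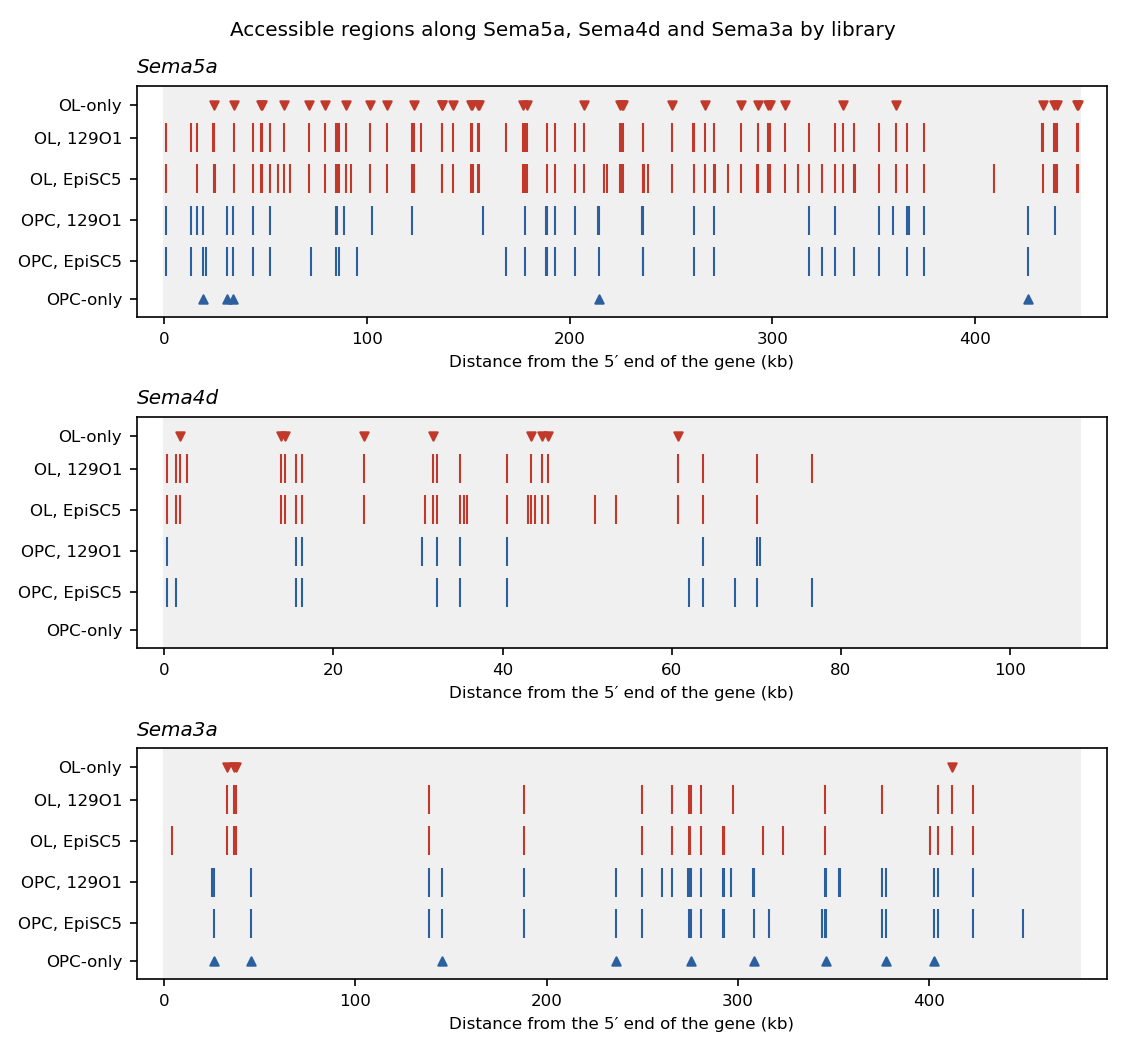
Peaks along Sema5a, Sema4d and Sema3a against distance from the 5′ end of the gene in kb (grey, gene body), 1 row per library (OL red, OPC blue), with triangles for OL-only (top) and OPC-only (bottom) regions. Sema5a has 38 OL-only and 5 OPC-only regions along its length, Sema4d has 9 and none, and Sema3a has 4 and 9.

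Sema4b (chr7:80186870-80226646), a membrane-bound class 4 semaphorin, covered 2.35 and 2.25 kb in OLs, against 3.62 and 3.75 kb in OPCs, without overlap. The log2 difference was -0.63 (SE 0.15, adjusted p = 0.00538). The call held under 10 of 13 alternatives (adjusted p between 0.0044 and 0.112) and was lost without scaling, with 200 bp windows and with the stronger 50% of peaks. It had 6 peaks in each OL library, against 9 and 10 in OPCs (adjusted p = 0.0849). The peak at its printed start, which lies inside the gene, was 822 and 1025 bp wide in OLs and 947 and 924 bp in OPCs, so the groups overlapped there. The promoter of the listed start at the 5′ end of the gene, 80186870, had no peak in any library. Its 3 OPC-only regions lay between 0.976 kb upstream and 10.4 kb downstream of the nearest listed start.

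The remaining semaphorins did not pass the test by covered length. Sema3f, which acts through Nrp2 and attracts rodent OPCs in culture, covered 1.35 and 1.48 kb in OLs, against 1.38 and 2.32 kb in OPCs (log2 difference -0.30, adjusted p = 0.314). The OL libraries were alike, and the EpiSC5 OPC library alone stood above them. Its difference was called without the 129O1 OPC library (log2 difference -0.64, adjusted p = 0.0301) and was 0.03 without the EpiSC5 OPC library, with adjusted p between 0.0301 and 0.967 over the 13 alternatives. Sema6a, a transmembrane ligand of Plxna2 and Plxna4 whose loss delays oligodendrocyte differentiation in mice, covered 7.19 and 7.48 kb in OLs and 7.23 and 7.02 kb in OPCs (log2 difference 0.04, SE 0.13, adjusted p = 0.884).

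Sema5b, the other class 5 gene, had similar coverage in both cell types and unequal counts of cell-type-only regions. It covered 8.56 and 7.27 kb in OLs and 7.96 and 7.16 kb in OPCs (adjusted p = 0.825), yet it had 29 and 30 peaks in OLs and 20 and 17 in OPCs (adjusted p = 0.0862) and held 11 OL-only regions against 2 OPC-only ones. Its promoter peak was narrower in OLs, 1257 and 644 bp against 1519 and 1513 bp in OPCs. Sema6d, the longest gene of the family, covered 11.4 and 12.4 kb in OLs and 11.4 and 11.1 kb in OPCs (adjusted p = 0.720), with 15 OL-only and 10 OPC-only regions. By class, the log2 differences in covered length ran from -0.80 to 0.71 over the 6 class 3 genes tested, from -0.63 to 0.68 over the 6 class 4 genes and from -0.14 to 0.08 over the 4 class 6 genes, and that of Sema7a, the lipid-anchored ligand of Plxnc1, was -0.27 (adjusted p = 0.272). Sema3b, which was not tested, covered 0.446 and 0.322 kb in OLs and 0.320 and 0.665 kb in OPCs.

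**Figure D3:**
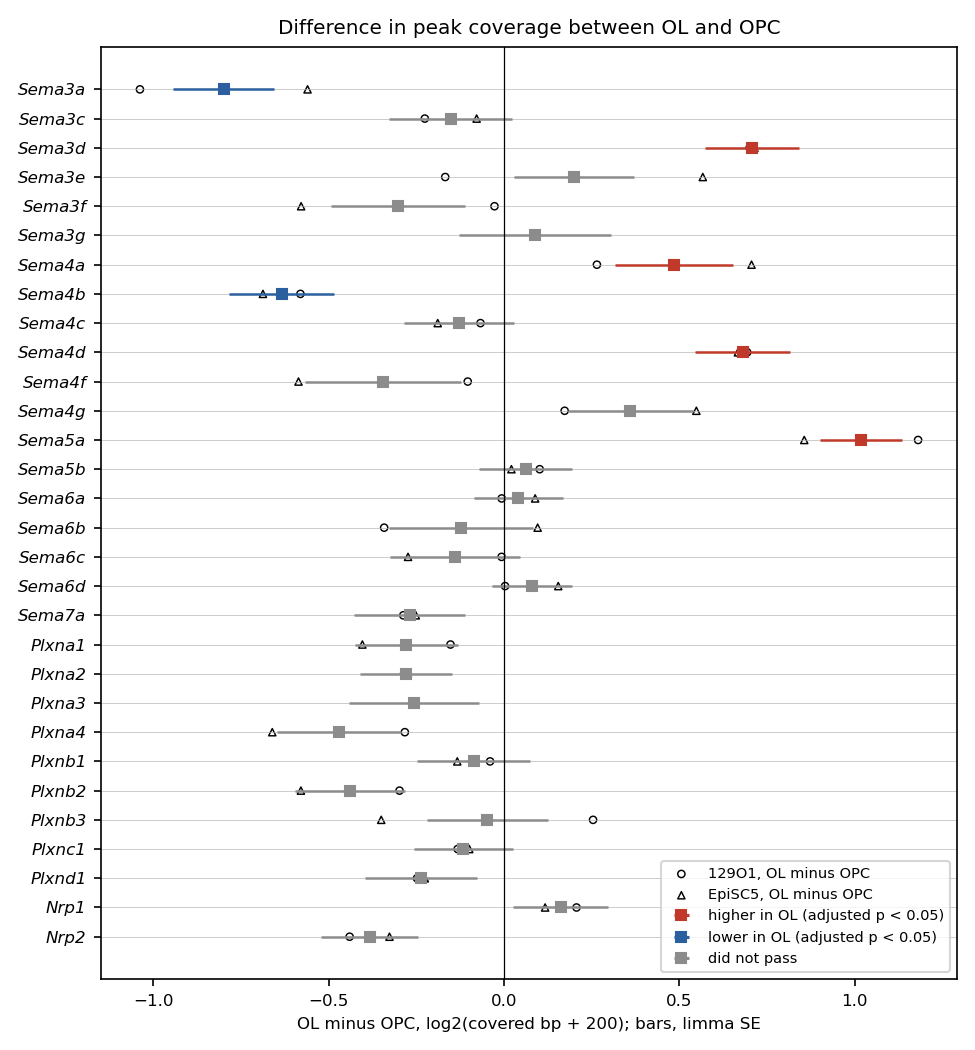
Difference in peak coverage between OLs and OPCs (OL minus OPC, log2 of covered bp plus 200) for the 30 genes tested, with squares for the limma estimate, bars for its SE, and small circles and triangles for the lines 129O1 and EpiSC5. The 4 genes higher in OLs (red) and the 2 lower (blue) are all semaphorins, and all 9 plexins lie below 0.

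The receptors gave no call in 11 genes tested. All 9 plexins had a negative difference, with a median of -0.26 against -0.02 over all genes tested, of which 7716 of 14543 were negative, though Plxnc1 turned positive without the 2 kb flanks, Plxnc1 and Plxnd1 with 200 bp windows around summits, Plxnb3 with the stronger 50% of the peaks and without the EpiSC5 OPC library, and Plxnb1 and Plxnb3 without the EpiSC5 OL library. By peak number, 7 of the 9 were negative, and Plxnc1 (0.42) and Plxnd1 (0.08) were positive. No single plexin passed the test with all peaks and libraries. Plxnd1 was called as lower in OLs with the stronger 50% of the peaks. Windows of 200 bp around summits take out peak width and so largely recount peaks, which makes them no separate check beside peak number. With them the median of the 8 plexins tested was -0.17, against 0.06 over all genes. By peak number the plexin median was -0.22, against 0.05 over all genes.

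Plxna4, an A-type plexin through which Sema3a and Sema6a act, covered 7.66 and 4.66 kb in OLs, against 9.36 and 7.49 kb in OPCs. The 129O1 OL library lay above the EpiSC5 OPC library, so the groups overlapped. Its log2 difference was -0.47 (SE 0.18, adjusted p = 0.0691). It was called without the 129O1 OL library (log2 difference -0.82, adjusted p = 0.00277) and without the EpiSC5 OPC library (-0.63, adjusted p = 0.00119), with adjusted p between 0.00119 and 0.758 over the 13 alternatives.

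Plxna1 covered 3.68 and 3.17 kb in OLs, against 4.12 and 4.26 kb in OPCs (log2 difference -0.28, SE 0.15, adjusted p = 0.214). The OL libraries were the lower ones, by less than the test requires. Of its covered sequence, 36.0% also lies in the window of a neighbouring gene. Plxnb3, a B-type plexin found in oligodendrocytes and a receptor of Sema5a, covered 1.65 and 1.400 kb in OLs and 1.35 and 1.84 kb in OPCs (log2 difference -0.05, SE 0.17, adjusted p = 0.902). Its promoter peak was the wider one in OLs, 917 and 911 bp against 452 and 743 bp in OPCs. The nearest to the threshold was Plxnb2, with 1.95 and 1.76 kb in OLs and 2.45 and 2.73 kb in OPCs (adjusted p = 0.0554). Of the covered sequence of Plxnb2, 43.7% also lies in the window of a neighbouring gene. The log2 differences of the other plexins lay between -0.28 for Plxna2 and -0.09 for Plxnb1.

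The 2 neuropilins differed from each other in direction. Nrp2, the co-receptor for Sema3f, covered 4.04 and 4.42 kb in OLs, against 5.55 and 5.59 kb in OPCs, a difference that missed the threshold (log2 difference -0.38, SE 0.14, adjusted p = 0.0586). It was called with the stronger 50% of the peaks (log2 difference -1.11, adjusted p = 0.00303), and with 200 bp windows around summits its difference was 0.05 (adjusted p between 0.00303 and 0.864 over the 13 alternatives). Its number of peaks was nearly equal, 17 and 18 in OLs and 16 and 15 in OPCs. Nrp1, the co-receptor for Sema3a, covered 5.79 and 5.48 kb in OLs and 4.99 and 5.04 kb in OPCs (log2 difference 0.16, SE 0.14, adjusted p = 0.475), with 26 peaks in each OL library and 20 and 17 in OPCs.

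Without scaling of the lists to a common total, none of the 6 calls by covered length passed (adjusted p between 0.0590 and 0.153), all 6 differences kept their sign, and the median of all genes moved to -0.13. In that fit 583 genes were called in all, of which 33.8% were higher in OLs, against 56.1% with scaling.

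Over the whole family, 668 merged regions lay in the gene windows, of which 141 (21.1%) were OL-only, 66 (9.88%) were OPC-only and 169 had peaks in all 4 lists. In the windows of all protein-coding genes 16.8% of 141580 regions were OL-only and 8.84% OPC-only. OL-only regions made up 68.1% of the cell-type-only regions in the family and 65.6% over all genes. With all peaks the family thus stood close to the background. With the stronger 50% of the peaks it did not, since the family held 57 OL-only and 54 OPC-only regions, and the OL-only share was 51.4% in the family, against 65.7% over all genes. Leaving out a library moved these counts in the family and over all genes. Without the EpiSC5 OPC library the family held 156 OL-only and 146 OPC-only regions (51.7% OL-only, against 50.4% over all genes), and without the 129O1 OPC library 160 and 110 (59.3%, against 51.1%). Without the 129O1 OL library it held 219 and 79 (73.5%, against 73.6%).

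Semaphorin genes held 105 OL-only and 45 OPC-only regions among 464, plexin genes 21 and 13 among 137, and neuropilin genes 15 and 8 among 67. The class 5 genes Sema5a and Sema5b together had 49 OL-only and 7 OPC-only regions among 137. Of the other genes, Sema6d had 15 OL-only regions, Sema3d 11 and Nrp1 10, and Sema3a, at 4 OL-only and 9 OPC-only, had the largest excess of OPC-only regions. In all, 16 of the 31 genes held more OL-only than OPC-only regions, 9 held more OPC-only regions and 2 held neither kind. Of the 21887 genes, 6234 (28.5%) held more OL-only regions, 3042 held more OPC-only regions and 11492 held neither kind. Since so many of all genes held neither kind, the 28.5% is not a like measure for the family. Without the EpiSC5 OPC library 8 of the 31 genes held more OL-only and 17 more OPC-only regions, against 5136 and 5833 of the 21887.

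Since long genes hold more regions, counts were also taken per 100 kb and ranked among the 2429 protein-coding genes of at least 100 kb. Sema5b had 8.65 OL-only regions per 100 kb, Sema5a 8.34 and Sema4d 8.02, which ranked at percentiles 99.3, 98.7 and 98.2. Nrp1, at 6.63 per 100 kb, ranked at percentile 96.0. For OPC-only regions the highest of the 14 family genes of that length were Plxna2, at 3.48 per 100 kb and percentile 95.5, and Nrp2, at 3.35 and percentile 94.9. Both held still more OL-only regions, 3.98 per 100 kb in Plxna2 (percentile 79.6) and 4.19 in Nrp2 (percentile 81.2). Sema3a, at 1.86 OPC-only regions per 100 kb, ranked at percentile 75.3.

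**Figure D4:**
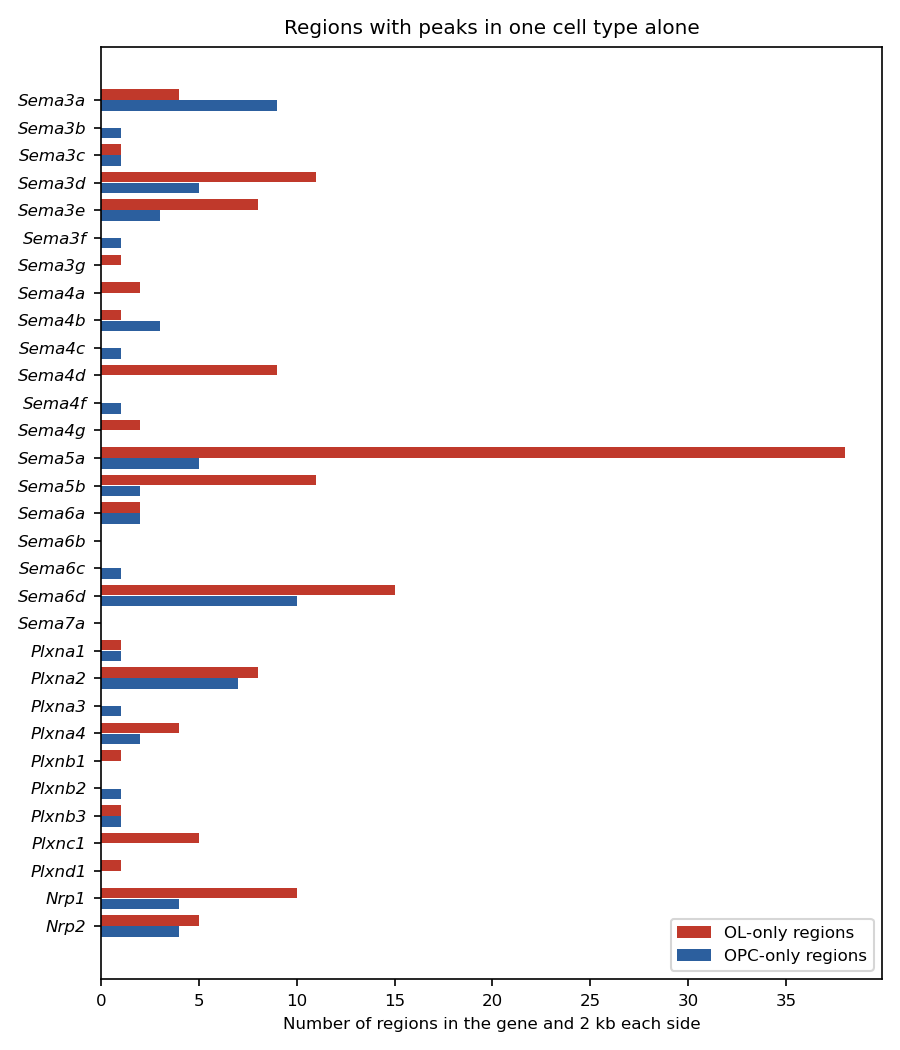
Number of OL-only (red) and OPC-only (blue) regions in the window of each of the 31 genes. Sema5a has 38 OL-only regions, more than any other gene of the family, and Sema6d has the most OPC-only regions, 10.

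The OL-only regions with the most covered sequence lay inside gene bodies, as did the OPC-only ones below. The windows searched reached only 2 kb beyond each gene, so this position was largely set by the search. In Sema5b the region chr16:35647435-35648111, 106 kb from the start, had peaks of 626 and 647 bp in OLs, with fold enrichments of 8.81 and 9.57 in the authors' lists. In Sema5a, chr15:32677789-32678433 had peaks of 617 and 636 bp, chr15:32543062-32543746 of 685 and 537 bp, and chr15:32550893-32551496 of 543 and 604 bp. The first and the last of these Sema5a regions had authors' −log10 q values of 46.3 and 64.2, and of 46.8 and 65.3. In Plxna4, chr6:32167557-32168256 had 700 and 490 bp, although the gene as a whole did not pass the test.

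The 5 OPC-only regions with the most covered sequence were mostly in receptor genes, although semaphorin genes held 45 of all 66 OPC-only regions of the family. In Nrp2, chr1:62794471-62795229 had peaks of 729 and 721 bp in OPCs, with authors' fold enrichments of 10.9 and 9.89. In Plxna2, chr1:194658376-194659118 had 598 and 743 bp and chr1:194746746-194747559 had 487 and 814 bp. In Plxna1, chr6:89351450-89352084 had 582 and 635 bp, and in the semaphorin gene Sema3e, chr5:14162511-14163131 had 502 and 589 bp.

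Cell-type-only regions were seldom at starts. Of 134 OL-only regions in genes with a listed start, 3 (2.24%) lay within 1 kb of one, and of 59 OPC-only regions 2 (3.39%) did, against 29 of 142 regions (20.4%) with peaks in all 4 lists. Taking all starts of a gene together, 24 of 26 genes with a listed start had a peak there in all 4 lists, against 56.0% of all such genes. The exceptions were the internal Sema4d start, with peaks in OLs alone, and the listed Sema3a start, with no peak. Windows of 1 kb on each side of a start gave the same counts.

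Promoter peaks differed in width, which is given without scaling to list totals. Of the 23 genes with 1 start that had a peak in all 4 lists, 15 (65.2%) had narrower peaks in both OL libraries than in both OPC libraries, as did 68.5% of such genes over the genome, so this narrowing is shared by most promoters in these lists. The OL lists also had the smaller median peak width, 190 and 192 bp against 201 and 237 bp in OPCs. Among the narrowest relative to OPCs were those of both neuropilins. Nrp1 had 272 and 440 bp in OLs and 781 and 1047 bp in OPCs, and Nrp2 had 205 and 391 bp in OLs and 618 and 576 bp in OPCs. The promoter peaks of Sema3g and Plxnb3 were the wider ones in OLs, as were 2.28% over the genome. Sema3g had 338 and 333 bp in OLs and 107 and 229 bp in OPCs.

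**Figure D5:**
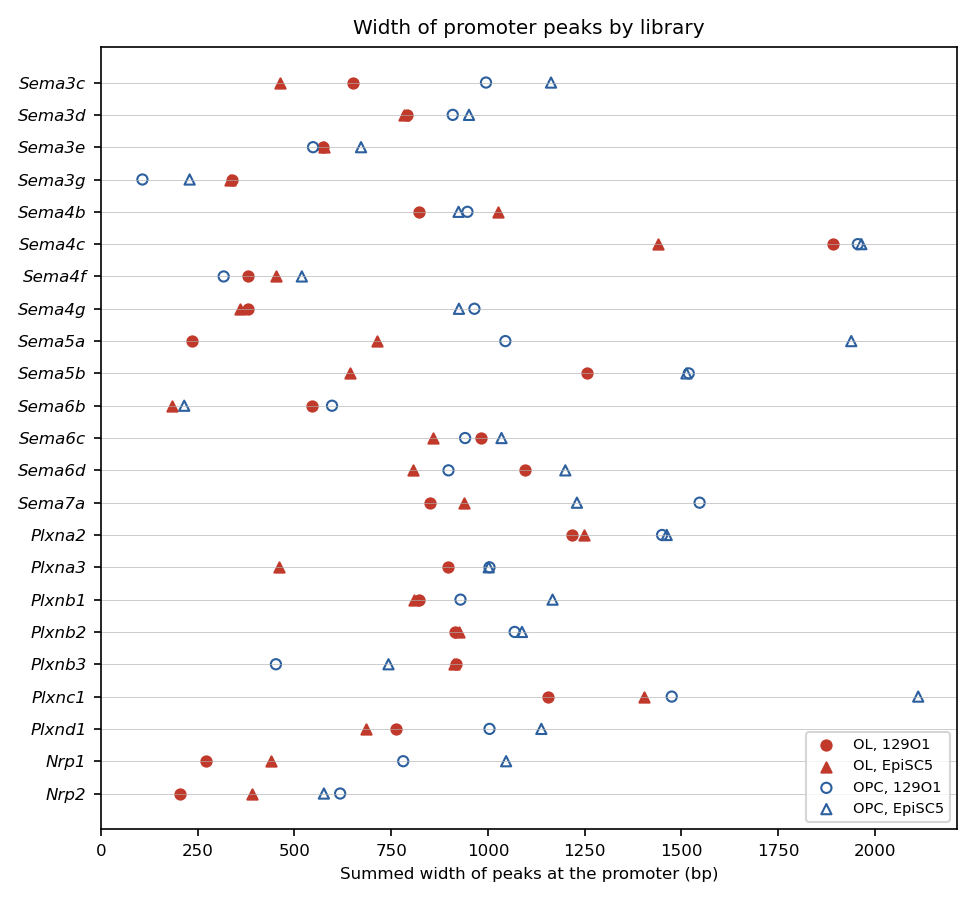
Summed width in bp of the peaks at the promoter in each library (OL filled red, OPC open blue, circles for 129O1, triangles for EpiSC5) for the 23 genes with a promoter peak in all 4 lists. In 15 genes both OL peaks are narrower than both OPC peaks, and in Sema3g and Plxnb3 they are wider.

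Of 57 genes that act with semaphorins and their receptors, 52 were tested, and 10 rose and 4 fell in OLs (26.9% called, against 19.6% over all genes), with a median log2 difference of 0.00 against -0.02 over all genes. Among 13 co-receptor and partner genes the integrin gene Itgb1 rose and Flt1 and Itga1 fell, and among 4 neuropilin ligands of the VEGF family Vegfc fell. Of the covered sequence of Vegfc 76.8%, and of that of Itga1 29.4%, also lies in the window of a neighbouring gene. Among 17 GTPases and their regulators 4 rose (Arhgef11, Arhgef12, Farp2 and Rras2) and Mras fell, and among 18 cytoplasmic effectors 5 rose (Gsk3b, Ptk2, Mical3, Ranbp9 and Limk1) and none fell. Limk1 was close to the threshold (adjusted p = 0.0493), and its log2 difference by peak number was -0.10. The myeloid partner genes Tyrobp and Trem2 were at 0 in all 4 libraries.

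Among the genes that rose were 3 exchange factors that act in plexin signalling. Arhgef11, an exchange factor bound by B-type plexins, covered 2.93 and 3.28 kb in OLs, against 1.11 and 1.33 kb in OPCs (log2 difference 1.22, adjusted p = 4.55e-05). Its relative Arhgef12 covered 5.57 and 5.31 kb in OLs, against 3.99 and 2.81 kb in OPCs (0.67, adjusted p = 0.0064). Farp2, a Rac exchange factor that A-type plexins release on Sema3a binding, covered 4.15 and 4.49 kb in OLs, against 2.18 and 2.14 kb in OPCs (0.94, adjusted p = 0.000259). In all 3 genes both OL libraries lay above both OPC libraries, as in 27.4% of all genes tested. These genes were picked by a test of the same values, so the lack of overlap adds no evidence.

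Among the effectors, Gsk3b, Ptk2 and the cytoskeletal oxidase gene Mical3 rose. Gsk3b, a kinase that phosphorylates the CRMP mediators of Sema3a, covered 5.86 and 6.19 kb in OLs, against 4.18 and 3.15 kb in OPCs (0.70, adjusted p = 0.00312). Ptk2, the focal adhesion kinase, covered 7.90 and 9.72 kb in OLs, against 5.46 and 6.14 kb in OPCs (0.58, adjusted p = 0.00574). It was called in 8 of the 13 alternative settings and was lost with scaling by the median of ratios (adjusted p = 0.0857). Mical3 covered 11.2 and 11.6 kb in OLs, against 8.95 and 7.12 kb in OPCs (0.50, adjusted p = 0.00972), and was called in 6 of the 13 alternative settings (adjusted p between 0.000216 and 0.201). It was lost without the EpiSC5 OL library (0.0550) or the EpiSC5 OPC library (0.101).

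The largest of the falls was in Flt1, a VEGF receptor that partners neuropilins and is also on the vascular marker list that fell in OLs. It covered 0.664 and 0.232 kb in OLs, against 2.10 and 2.64 kb in OPCs (-2.07, adjusted p = 1.53e-05). Mras, a Ras-family GTPase on which plexins can act, covered 1.86 and 2.31 kb in OLs, against 4.11 and 4.08 kb in OPCs (-0.92, adjusted p = 0.000456). In both genes, picked by the test of the same values, the OL libraries lay below the OPC libraries, as in 28.1% of all genes tested. With 200 bp windows the call of Mras was lost and its log2 difference was -0.22. The calls of Gsk3b, Ptk2, Arhgef12 and Mical3 were also lost there, at log2 differences of 0.79, 0.55, 0.44 and 0.44. Without scaling Flt1 alone of these 8 genes was called. Leaving out the EpiSC5 OL library also ended the call of Ptk2 (adjusted p = 0.108, over a range of 0.000447 to 0.280), and leaving out the EpiSC5 OPC library that of Arhgef12 (adjusted p = 0.0695, over a range of 8.14e-06 to 0.174).

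Per length, Sema4c was the most accessible of the 31 genes, with peaks over 17.5% of its window in OLs and 20.9% in OPCs as unscaled means of the libraries. Of that covered sequence, 33.1% also lies in the windows of neighbouring genes. Sema3a was the least covered per length in OLs, with 0.863%, against 1.64% in OPCs. Among the called genes Sema5a had 4.22% in OLs and 2.27% in OPCs, Sema4d 5.66% in OLs and 3.77% in OPCs, Sema3d 3.34% in OLs and 2.18% in OPCs, and Sema4b 5.04% in OLs and 8.77% in OPCs.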

How the data were processed

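Omni-ATAC-seq libraries of OLs and OPCs from the lines 129O1 and EpiSC5 were analysed from the deposited peak lists. Per the submitters' processing notes, the tools were MACS2, Picard, Bowtie2 2.3.2 and Trim Galore 0.3.1, and the build was mm10. For MACS2 the version and settings, and for the reads any Tn5 shift, are not given in the sources used. The authors' lists were called per library. Each deposited peak has a score, a fold enrichment on a linear ratio scale, and p and q as −log10 values, which are the authors' own and served only to describe or rank peaks within a list. Their lowest −log10 q lay between 3.00 and 3.03, and read depth is unknown, so no counting interval is given. Depth and fragment length can change how many and how wide peaks are called.

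Gene intervals came from RefSeq GRCm38.p6 (mm10). Covered base pairs per gene with 2 kb flanks were scaled to the mean list total, transformed as log2(bp + 200) and kept at a mean of at least 500 bp. This scale understates changes of genes with little coverage. Peak numbers were treated alike as log2(number + 1) at a mean of at least 2. All genes were fitted together in limma 3.58.1 under R 4.3.3 (trend on mean coverage, two-sided, Benjamini-Hochberg adjustment, threshold 0.05), after a check on simulated data. Regions are merged overlapping or touching peaks of all 4 lists. Promoters run from 250 bases before to 50 after a RefSeq start, which 26 of the 31 genes had in the table used. Sequences of other regions were not used here. Plxna1, Plxna4, Sema3b, Sema3f and Sema6a were not matched.

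Each line gave 1 OL and 1 OPC library, so the line pairs the libraries. Deviations from the group means correlated at 0.287 within each line over 14543 genes, a value that is the same for both lines by construction. The fit with the line as a block was an alternative, beside other pseudocounts, scalings and filters, no flanks, 200 bp around summits, the stronger 50% of peaks and leaving out each library. Genes described with values in each library are the called members, Sema3a, Sema3f, Sema4d, Sema5a, Sema6a, Nrp1, Nrp2, Plxna1, Plxna4 and Plxnb3 whatever their result, and the 8 called pathway genes with the smallest adjusted p. Other members given with values, the other called pathway genes and the Sema3a regions were added after their values were seen. The members and lists were chosen with earlier results of these data known.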

Additional observations from a re-analysis of the deposited data

Results flagged for a closer look

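In 4 of the 30 genes tested (13.3%) the difference in covered length, OL minus OPC on the log2 scale, had opposite signs in the lines 129O1 and EpiSC5, against 25.5% of all 14543 genes tested. With 1 library per cell type and line, the difference between the lines was not tested. Sema3e, a secreted ligand of Plxnd1, had -0.17 in 129O1 and 0.57 in EpiSC5. Plxnb3 had 0.25 in 129O1 and -0.35 in EpiSC5. Sema6b had -0.34 in 129O1 and 0.10 in EpiSC5. Sema6a had -0.0066 in 129O1 and 0.089 in EpiSC5. None of the 4 genes passed the test of OL against OPC.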

How the results depend on the processing

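By covered length, the signs of the 6 called genes held under all 13 alternatives run, with the lost calls named above. With the replicate block (the line) 2908 genes were called, against 2857 without it, and of the 6 calls it changed that of Sema4a alone. By peak number the replicate block gave 2245 genes, 1433 higher and 812 lower, with 5 family genes higher and 2 lower. Windows of 200 bp around summits gave 742 genes, 516 higher and 226 lower (69.5% higher, against 56.1%), with 0 family genes lower. Scaling by the median of ratios left 741 genes lower. No scaling gave 583 genes, 197 higher and 386 lower, with 0 family genes in either direction, and by peak number 1 family gene. The stronger 50% of peaks gave 1637 genes, 883 higher and 754 lower, with 2 family genes higher, 1 family gene by peak number and 57 OL-only regions. With no filter on the mean, limma called 0 genes by peak number, while 4358 had an unadjusted p below 0.05.

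Leaving out 1 library gave between 1034 and 1415 genes higher by covered length, and 156 to 219 OL-only and 73 to 146 OPC-only regions. By peak number it gave 0 to 121 genes, 0 to 81 higher and 0 to 40 lower, with 0 to 1 family genes. The 121 were without the EpiSC5 OL library. The fits with 0 calls had 2191, 2407 and 2240 genes at an unadjusted p below 0.05, and the lone library of a group was assumed to vary like the others.

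No called difference turned its sign, but these uncalled log2 differences did. With 200 bp windows that of Nrp2 was 0.055 and that of Sema6a -0.039. Without scaling that of Sema5b was -0.055 and that of Sema6a -0.075, and by peak number 0.082. With the stronger 50% of peaks the values were -0.083 for Sema5b, 0.41 for Sema6b, -0.30 for Sema6a, -0.42 for Sema4g, -0.050 for Nrp1 and 0.059 for Plxnb3, and by peak number -0.72 for Nrp2 and 0.088 for Sema6a. Leaving out 1 library, the values ran from -0.054 to 0.18 for Sema5b, -0.50 to 0.26 for Sema6b, -0.062 to 0.46 for Sema3e, -0.64 to 0.032 for Sema3f and -0.24 to 0.15 for Plxnb3, and by peak number from -0.043 to 0.13 for Nrp2 and -0.59 to 0.11 for Plxna4. The cause of these changes was not tested.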
